A study of Mus musculus with 4 samples.

Results

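Cycling tumor-infiltrating T cells were the T cells that carried RNA of the proliferation genes *Mki67* and *Top2a* when they were sorted from mouse melanomas, and 584 of 3084 T cells met the rule, among 11649 cells kept of 14137 cell barcodes in all. A cell was called a T cell if it held at least 3 molecules (unique molecular identifiers, UMIs) of *Cd3d*, *Cd3e* and *Cd3g* together and no more than 3 of the macrophage genes *C1qa*, *C1qb* and *Lyz2* together. It was called cycling from 3 UMIs of *Mki67* and *Top2a* together, non-cycling at 0 (2124 cells), and the 376 T cells with 1 or 2 such UMIs were left between. The cells were thus chosen by their measured values of *Mki67* and *Top2a*, so cycling cells set beside non-cycling cells are a description and no test.

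Mouse B16-F10 melanoma cells, derived as 1 clone that makes the green fluorescent protein ZsGreen (ZsG) in its cytoplasm only when doxycycline (dox) is given, were injected under the skin of wild-type C57BL/6 mice that drank dox, and tumors were taken on day 8. All cells analysed came from such tumors, and ZsG in an immune cell marked material made by the tumor. In the first experiment CD45+ tumor-infiltrating leukocytes (TILs) were sorted into ZsG-negative and ZsG-positive cells, and in a separate experiment T cells (sorted as CD45+TCRb+ by the labels, as CD45+CD3+ by the methods) were sorted the same way. Each of the 4 sorts gave 1 droplet library for 3′ RNA sequencing, with no replicate, so no p-value is given and every interval (95%) covers counting error only, not the spread between mice. The CD45 gate took only the brightest cells as ZsG-positive, so its ZsG-negative library also held most of the lymphocytes that carried ZsG. The T cell gate separated ZsG-negative from ZsG-positive T cells directly. Mouse ages and the number of tumors pooled per sort are not given in the sources used here.

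In the T cell sort the sources contradict each other on which library is ZsG-positive. The name of the deposited table and the cell numbers of the study give the library of 2396 barcodes as ZsG-positive, which was used, while the library names in the sample descriptions give the reverse order, and with the reverse order every ZsG ratio of this sort changes its sign. Values are given in the order CD45 ZsG-negative, CD45 ZsG-positive, TCRb ZsG-negative and TCRb ZsG-positive wherever 4 are listed. The libraries held 5437, 5168, 1136 and 2396 barcodes with 47537541, 56510578, 10030971 and 22100220 UMIs. T cells made up 34.3%, 3.06%, 67.4% and 37.7% of the kept cells, and 407, 51, 34 and 92 of the T cells were cycling. The CD45 ZsG-positive library was mostly myeloid, so its 51 cycling T cells came from 126 T cells among 4123 kept cells. Of all barcodes, 16 stood in more than 1 library, 2 of them cycling T cells, and none was shared among cycling T cells.

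T cells that meet their antigen leave quiescence, copy their DNA in S phase and divide in mitosis, and each phase has its own genes. The E2F factors switch on the S phase genes for licensing replication origins and making nucleotides, and the MuvB complex acts at promoters with a CHR element and CCAAT boxes to time the genes of G2 and mitosis. In tumors, CD8 T cells kill target cells and gain inhibitory receptors as they stay exposed to antigen, a Tcf7-positive subset keeps a memory-like state, and Foxp3-positive regulatory T cells (Tregs) restrain other T cells and often divide there.

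The 5 marker genes of these cells were measured in every library. *Mki67* (chr7:135689784-135716361, minus strand, mm10), a coat protein of mitotic chromosomes, stood at 349, 553, 356 and 349 CPM (counts per 1000000 UMIs of the same cells) in cycling cells, and *Top2a* (chr11:98992943-99024189, minus strand), the topoisomerase that untangles copied DNA, at 513, 675, 468 and 536 CPM. Both were at 0 in non-cycling cells by the rule. *Rrm2* (chr12:24708241-24714146, plus strand), the small subunit of ribonucleotide reductase, was not used by the rule and stood at 212, 200.3, 206 and 243 CPM in cycling and 5.74, 7.12, 2.70 and 4.13 CPM in non-cycling T cells, with log2 ratios of 5.19, 4.49, 6.18 and 5.83. *Cd8a* (chr6:71373427-71379173, plus strand), a chain of the CD8 coreceptor, stood at 279.8, 248, 317 and 323 CPM in cycling and 202, 207, 319.6 and 384 CPM in non-cycling T cells, and *Foxp3* (chrX:7573644-7595245, plus strand), the factor that defines Tregs, at 12.2, 24.8, 38.0 and 66.2 CPM in cycling and 8.33, 17.8, 18.9 and 60.2 CPM in non-cycling T cells. *Rrm2* separated the states in all 4 libraries, while the cycling and non-cycling ranges of *Cd8a* and of *Foxp3* overlapped. Every cycling cell held a UMI of a T cell receptor constant gene (*Trac*, *Trbc1* or *Trbc2*).

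Cycling cells were far deeper than non-cycling cells. Their median UMIs were 28846, 19322, 20763.5 and 18973, against 5459, 3916, 5658 and 5519 in non-cycling T cells, and their median genes were 4710, 4025, 4014 and 3757 against 1763, 1422, 1766 and 1747. The median share of mitochondrial UMIs was 3.96%, 4.08%, 3.56% and 3.72% against 5.14%, 5.31%, 4.47% and 4.36%. RNA content, 2 cells in 1 droplet and capture cannot be told apart in these totals, so levels are given as CPM, shares of cells also after each cell was thinned to 2000 UMIs, and ratios also against the non-cycling cells with at least 10000 UMIs (the deep non-cycling cells). At the threshold, 39, 2, 12 and 23 cells held 2 UMIs of *Mki67* and *Top2a* and 24, 2, 8 and 17 held 3, with median depths of 16053, 14418, 5722 and 9245 UMIs just outside and 18746, 16027, 12446 and 9669 just inside. The median over all cycling cells was 20, 22, 9.5 and 12 such UMIs.

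The promoters of 5 of the genes that mark these cells are shown because they carry the CHR, CCAAT or E2F motif letters of cell cycle promoters. The windows are from RefSeq (GRCm38.p6), run 5′ to 3′ on the gene's strand and end 1 base before the RefSeq start, with motif letters in capitals. They cover chr7:135716380-135716549 (*Mki67*, minus strand), chr11:99024190-99024379 (*Top2a*, minus), chr4:118437344-118437463 (*Cdc20*, minus), chr8:75109319-75109508 (*Mcm5*, plus) and chr12:24708114-24708253 (*Rrm2*, plus).
Mki67: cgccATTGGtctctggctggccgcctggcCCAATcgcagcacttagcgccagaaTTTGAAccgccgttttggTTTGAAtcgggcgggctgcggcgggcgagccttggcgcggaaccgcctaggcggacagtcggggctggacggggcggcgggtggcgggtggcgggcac
Top2a: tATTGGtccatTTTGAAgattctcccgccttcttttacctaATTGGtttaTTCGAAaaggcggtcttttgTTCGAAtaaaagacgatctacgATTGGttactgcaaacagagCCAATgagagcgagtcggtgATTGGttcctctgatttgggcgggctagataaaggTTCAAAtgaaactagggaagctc
Cdc20: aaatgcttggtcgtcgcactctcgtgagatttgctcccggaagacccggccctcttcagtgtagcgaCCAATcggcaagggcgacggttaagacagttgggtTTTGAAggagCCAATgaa
Mcm5: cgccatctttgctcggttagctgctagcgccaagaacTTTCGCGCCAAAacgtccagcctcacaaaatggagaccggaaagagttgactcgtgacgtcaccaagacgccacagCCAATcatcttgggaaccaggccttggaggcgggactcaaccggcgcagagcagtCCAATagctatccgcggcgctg
Rrm2: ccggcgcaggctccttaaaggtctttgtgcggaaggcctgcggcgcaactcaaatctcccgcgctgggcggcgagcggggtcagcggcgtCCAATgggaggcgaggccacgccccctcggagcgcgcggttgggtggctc
The motifs searched on both strands were TTTGAA and TTCGAA (CHR), CCAAT, and TTTCCCGC, TTTCGCGC, TTTGCCGC and TTTGGCGC (E2F), in the 250 bases before and 50 after each start. *Mki67*, *Top2a* and *Cdc20* held CHR and CCAAT letters, *Mcm5* an overlapping pair of E2F matches with CCAAT, and *Rrm2* in this window CCAAT alone. A CHR match was found in 74.5% of the 47 matched G2M phase promoters (of 54 listed), in 16.1% of the 31 matched S phase promoters (of 43 listed) and in 19.4% of all 27025 promoters. For E2F the shares were 4.26%, 38.7% and 2.32%, and for CCAAT 76.6%, 67.7% and 37.9%. CHR and CCAAT stood together in 61.7% of the G2M phase, 12.9% of the S phase and 7.70% of all promoters. Of the 14 matched cytotoxic gene promoters (of 15 listed), 28.6% held CHR and none E2F letters. Of the 12 naive and memory promoters (of 15), 25% held CHR and none E2F letters, and of the 14 interferon alpha/beta promoters (of 20), 7.14% held each. These matches describe letters and not binding.

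The cycling share of T cells was largest in the CD45 sort and, in both sorts, larger among ZsG-positive than ZsG-negative cells. It was 25.3% (exact binomial interval 23.2 to 27.5) and 40.5% (31.8 to 49.6) in the CD45 ZsG-negative and ZsG-positive libraries, and 5.32% (3.71 to 7.36) and 12.98% (10.6 to 15.7) in the TCRb libraries. The log2 ratio of ZsG-positive over ZsG-negative was 0.68 (0.23 to 1.10) in the CD45 sort and 1.29 (0.70 to 1.90) in the T cell sort. The intervals of both ratios lay above 0. After thinning, where 1 UMI of *Mki67* or *Top2a* counted as cycling, the shares were 20.7%, 41.3%, 9.11% and 15.8% and the ratios 1.00 (0.55 to 1.42) and 0.79 (0.32 to 1.28). Most T cells of the CD45 ZsG-positive library held 1 to 3 UMIs of *C1qa*, *C1qb* and *Lyz2*. Without such cells that library kept 18 of its 126 T cells, 4 of them cycling, and the CD45 ratio was -0.12 (-2.01 to 1.25), so its direction turned, with an interval across 0.

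By class, CD8 cells (at least 2 UMIs of *Cd8a* and *Cd8b1*, none of *Cd4* or *Foxp3*) were cycling in 41.8%, 55.4%, 5.08% and 12.96% of cases, and Foxp3+ cells (at least 1 *Foxp3* UMI, at most 1 of *Cd8a* and *Cd8b1*) in 45.6% (26 of 57), 60% (6 of 10), 25.8% (8 of 31) and 25.4% (29 of 114). Within the T cell sort the Foxp3+ class thus had the larger cycling share, with log2 ratios over CD8 of 2.34 (0.94 to 3.60) for ZsG-negative cells and 0.97 (0.27 to 1.65) for ZsG-positive cells. In the CD45 sort these ratios were 0.13 (-0.51 to 0.70) and 0.12 (-1.42 to 1.38), with intervals across 0. With *Mki67* and *Top2a* thinned, the 4 ratios were 0.25, 0.16, 2.00 and 0.89. The classes still came from all UMIs in every thinned share by class, so class membership was not at equal depth. CD4 Foxp3- cells were cycling in 12.3%, 57.1%, 6.45% and 2.5% of cases, or 15.8%, 57.1%, 16.1% and 2.56% thinned, so the TCRb ZsG-negative share (4 and 10 of 62 cells) was higher when thinned. ZsG-positive over ZsG-negative, the cycling share of CD8 cells differed by 0.41 (-0.13 to 0.90) in the CD45 and 1.35 (0.57 to 2.19) in the T cell sort (thinned, 0.73 with an interval of 0.18 to 1.24 and 1.03 with 0.35 to 1.74), and that of Foxp3+ cells by 0.40 (-1.18 to 1.71) and -0.02 (-1.19 to 1.32). The counts of Foxp3+ cells leave these last intervals wide.

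**Figure D1:**
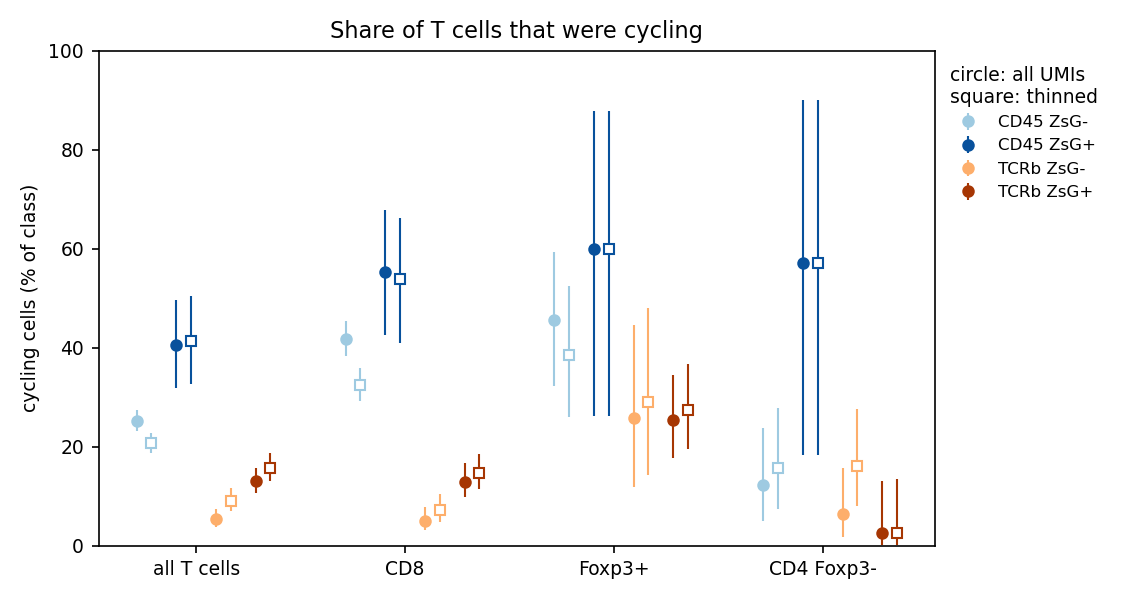
Cycling cells as a percent of all T cells, CD8, Foxp3+ and CD4 Foxp3- cells in each library (circles, all UMIs; squares, cells thinned to 2000 UMIs; lines, exact 95% binomial intervals for counting error). CD8 cells were cycling in 41.8% and 55.4% of cases in the CD45 libraries and in 5.08% and 12.96% in the TCRb libraries.

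The sorts were separate experiments with different gates, and the cycling share of CD8 cells differed between them more than between ZsG gates. The log2 ratio of the CD45 over the T cell sort was 3.04 (2.38 to 3.79) for CD8 cells of the ZsG-negative gates and 2.10 (1.44 to 2.73) for those of the ZsG-positive gates, and 2.16 and 1.87 after thinning. For Foxp3+ cells the same ratios were 0.82 (-0.36 to 2.18) and 1.24 (-0.32 to 2.53). Tumor, mouse and sort cannot be told apart here.

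CD8 cells were the largest class among cycling cells in every library, and Foxp3+ cells the next largest. CD8 cells made up 82.3%, 70.6%, 55.9% and 57.6% of cycling cells (335, 36, 19 and 53 cells), against 35.4%, 36.1%, 59.1% and 58.1% of non-cycling cells. Foxp3+ cells made up 6.39%, 11.8%, 23.5% and 31.5% (26, 6, 8 and 29 cells), against 2.03%, 4.92%, 3.61% and 12.8%. The Foxp3+ share was thus larger among cycling cells in all 4 libraries, with log2 ratios of 1.66 (0.77 to 2.56), 1.26 (-0.97 to 3.89), 2.70 (1.30 to 3.96) and 1.30 (0.62 to 1.96). The CD8 share was larger among cycling cells in the CD45 sort, by 1.22 (1.00 to 1.43) and 0.97 (0.16 to 1.80), and near equal in the T cell sort, at -0.08 (-0.83 to 0.59) and -0.01 (-0.46 to 0.41). The ZsG-positive over ZsG-negative ratio of the Foxp3+ share among cycling cells was 0.88 (-0.69 to 2.19) in the CD45 and 0.42 (-0.74 to 1.76) in the T cell sort, so neither interval excluded 0.

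The classes rest on a few UMIs, which deep cells reach more easily. Cells with neither CD8, *Cd4* nor *Foxp3* UMIs in these numbers were 57.8%, 57.4%, 27.4% and 20.8% of non-cycling but 5.41%, 7.84%, 5.88% and 0% of cycling cells (0 of 92 cells in the TCRb ZsG-positive library, which allows up to 3.93%). At 2000 UMIs per cell, *Foxp3* was seen in 3.19%, 1.96%, 8.82% and 13.04% of cycling and 1.16%, 0%, 3.05% and 8.52% of non-cycling T cells, and in none of 233, 2842, 69 and 212 macrophage-type cells (at least 20 UMIs of *C1qa*, *C1qb* and *Lyz2*, none of Cd3), whose median depths were 8521, 10238, 13287 and 11471.5 UMIs before thinning. The *Foxp3* share stayed larger in value in cycling cells at equal depth, by 1 cell in the CD45 ZsG-positive library (1 of 51 against 0 of 61, which allows up to 5.87%). *Cd8a* was seen in 39.3%, 21.6%, 38.2% and 34.8% of cycling and 22.3%, 23.0%, 36.6% and 37.9% of non-cycling cells (0.429%, 0.176%, 0% and 0.472% of macrophage-type cells), so only the CD45 ZsG-negative library kept a clearly larger *Cd8a* share in cycling cells. Of the non-cycling cells of that library, 7 Foxp3+ and 91 CD8 cells were deep, beside 26 and 335 cycling cells of any depth. In the TCRb ZsG-positive library 14 and 61 were deep, beside 29 and 53 cycling cells of any depth. These counts are thus not a comparison at equal depth.

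**Figure D2:**
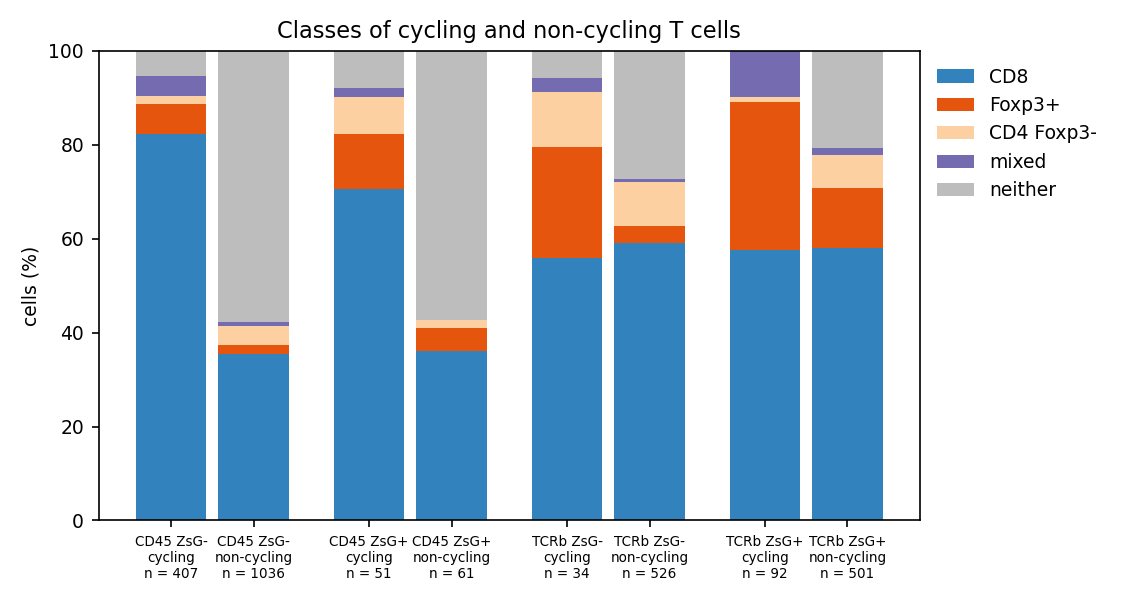
Classes of cycling and non-cycling T cells as a percent of the cells in each library (bars start at 0; n is the number of cells). Foxp3+ cells took 6.39%, 11.8%, 23.5% and 31.5% of cycling against 2.03%, 4.92%, 3.61% and 12.8% of non-cycling cells, and cells of neither class were mostly non-cycling.

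Mixed cells, with CD8 and *Cd4* or *Foxp3* UMIs together, were 4.18%, 1.96%, 2.94% and 9.78% of cycling cells (17, 1, 1 and 9 cells) and 0.676%, 0% (0 of 61), 0.570% and 1.40% of non-cycling cells. *Foxp3* stood beside CD8 UMIs in 13 of the 17 and in 8 of the 9. Doublets were kept, and their part in the mixed class was not tested. In the CD45 ZsG-negative library, 6.88% of cycling and 13.2% of non-cycling T cells held at least 3 UMIs of the natural killer (NK) cell genes *Ncr1*, *Klrb1c* and *Klra8*, and 4.42% and 14.6% held *Trdc*, the constant gene of the gamma delta receptor. Both were less frequent among cycling cells as a whole, but not among CD8 cells or cells of neither class. Among CD8 cells 4.48% of cycling and 2.72% of non-cycling cells held the NK genes and 2.99% and 1.36% held *Trdc*, with overlapping intervals, and among cells of neither class 54.5% and 20.4% held the NK genes and 27.3% and 23.4% *Trdc*. Among Foxp3+ cells 1 of 26 cycling and 3 of 21 non-cycling cells held the NK genes and 2 and 3 held *Trdc*. Cells of neither class were 22 of 407 cycling and 599 of 1036 non-cycling cells. Of the 22 cycling cells of neither class there, 12 held the NK genes and 6 held *Trdc*. In the other libraries no cycling cell held 3 such NK UMIs, and 1 cell in each held *Trdc*.

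Within CD8 cells, cycling cells carried the genes of DNA copying and mitosis at several times the level of non-cycling cells, and this was the part of the comparison that the rule nearly fixes. Libraries with at least 20 cycling CD8 cells were compared (CD45 ZsG-negative, CD45 ZsG-positive and TCRb ZsG-positive, always listed in this order where 3 values are given), so the TCRb ZsG-negative library with 19 appears with its levels only. A ratio is cycling over non-cycling on the log2 scale with 0.5 added to each sum, 1.00 is a doubling, and genes with at least 20 UMIs over both groups were compared. Over all 10192, 5181 and 7953 genes compared, 12.5%, 18.8% and 10.7% were 2-fold or more higher and 10.5%, 9.9% and 6.35% 2-fold or more lower, and the median over all genes was 0.07, 0.17 and 0.15.

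The S phase list of the Seurat package was 2-fold or more higher for 40 of 43, 26 of 41 and 41 of 43 genes compared, with medians of 2.30, 1.42 and 2.70, and its G2M phase list for 48 of 54, 42 of 48 and 42 of 47, with medians of 3.43, 2.65 and 4.09. Origin licensing genes had medians of 2.44, 1.42 and 2.57, nucleotide supply genes 1.87, 1.56 and 1.19 and genes of the spindle checkpoint and the anaphase-promoting complex 3.61, 2.58 and 4.18. These lists stayed higher against the deep non-cycling cells, where the S phase medians were 1.90 and 2.26 and the G2M phase medians 2.98 and 4.10 in the CD45 ZsG-negative and TCRb ZsG-positive libraries. Origin licensing had 1.93 and 2.13 and the spindle checkpoint list 2.88 and 3.78 by that measure, while nucleotide supply had 1.46 and 0.51, with 6 of 20 genes still 2-fold or more higher in the TCRb ZsG-positive library. *Mcm5*, a subunit of the replicative helicase, stood at 145, 138, 159 and 143 CPM in cycling and 23.8, 32.9, 25.5 and 26.7 CPM in non-cycling CD8 cells. *Tyms*, the thymidylate synthase that makes dTMP, stood at 157, 164, 197 and 175 CPM in cycling and 19.2, 32.9, 12.3 and 13.6 CPM in non-cycling CD8 cells. *Cdc20*, the activator of the anaphase-promoting complex, stood at 64.4, 84.6, 45.0 and 61.5 CPM in cycling and 5.55, 0, 1.37 and 2.72 CPM in non-cycling CD8 cells, and *Birc5* (survivin), a member of the chromosomal passenger complex, at 305, 311, 251 and 271 CPM in cycling and 18.6, 49.3, 2.28 and 3.17 CPM in non-cycling CD8 cells. For each of these genes no cycling library overlapped a non-cycling one. The list of CDK inhibitors, which hold back cyclin-dependent kinases, was 2-fold or more higher for 5 of 7, 2 of 4 and 3 of 5 genes and lower for 1, 2 and 0, with medians of 1.68, 0.31 and 1.79, and of 1.13 and 1.34 against the deep non-cycling cells. *Cdkn1a* (p21) stood at 70.1, 86.9, 70.8 and 88.2 CPM in cycling and 34.2, 173, 37.8 and 25.4 CPM in non-cycling CD8 cells, higher in cycling cells of all libraries but the CD45 ZsG-positive one. *Cdkn1b* (p27) stood at 38.0, 36.6, 68.6 and 56.1 CPM in cycling and 122, 148, 133 and 92.5 CPM in non-cycling CD8 cells, lower in each library, with ratios of -1.68, -2.03 and -0.71. Cyclin D2 (*Ccnd2*), which acts before S phase, was also lower, at -1.36, -1.18 and -0.62. Against the deep non-cycling cells *Cdkn1b* was -0.79 and 0.43, so its direction turned in the TCRb ZsG-positive library.

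Genes of naive and memory T cells and of quiescence were lower in cycling CD8 cells. The naive and memory list was 2-fold or more lower for 15 of 15, 6 of 7 and 12 of 14 genes compared (medians -2.99, -3.58 and -1.90). *Tcf7*, the factor TCF1 of memory-like cells, stood at 10.1, 11.4, 25.7 and 16.9 CPM in cycling and 162, 139.7, 151 and 86.6 CPM in non-cycling CD8 cells. *Il7r* (chr15:9505788-9530176, minus strand), the receptor chain for the survival cytokine IL-7, stood at 30.6, 16.01, 40.7 and 31.2 CPM in cycling and 243, 386, 335 and 139 CPM in non-cycling CD8 cells, with ratios of -2.99 (-3.18 to -2.80), -4.56 (-5.57 to -3.71) and -2.14 (-2.71 to -1.65). *S1pr1*, the receptor that guides T cells out of tissue, stood at 5.00, 1.14, 17.2 and 1.78 CPM in cycling and 113, 131, 167 and 68.9 CPM in non-cycling CD8 cells, and *Klf2*, the factor that maintains *S1pr1* and quiescence, at 16.6, 13.7, 45.0 and 37.4 CPM in cycling and 157, 238, 323 and 190.4 CPM in non-cycling CD8 cells. The cycling levels of these 4 genes lay below the non-cycling levels of all libraries. *Bcl2*, which blocks cell death, stood at 17.5, 3.43, 49.3 and 24.1 CPM in cycling and 210.1, 156, 230.5 and 134 CPM in non-cycling CD8 cells. The quiescence list was 2-fold or more lower for 14 of 18, 8 of 14 and 10 of 18 genes (medians -1.44, -1.55 and -1.19).

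These differences shrank against deep non-cycling CD8 cells. For this, 91 of 367 (CD45 ZsG-negative, median 13986 UMIs) and 61 of 291 (TCRb ZsG-positive, median 13027 UMIs) non-cycling CD8 cells passed 10000 UMIs, against cycling medians of 30362 and 20045 UMIs. The naive and memory medians became -1.80 and -0.92 and the quiescence medians -0.90 and -0.07. *Tcf7* was -2.53 and -0.96, *Il7r* -1.66 and -0.62 and *Bcl2* -2.42 and -0.42. *Tcf7* and *Il7r* thus stayed lower in both libraries, by less than 2-fold in the TCRb ZsG-positive one. After thinning to 2000 UMIs, *Tcf7* was seen in 2.39%, 2.78%, 5.26% and 0% (0 of 53, which allows up to 6.72%) of cycling and 31.1%, 27.3%, 23.2% and 12.8% of non-cycling CD8 cells, at median depths before thinning of 30362, 21125, 22843 and 20045 against 6653, 4194.5, 6353 and 6242 UMIs. In macrophage-type cells the *Tcf7* share was 0.429%, 0.0704%, 0% and 0%.

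Interferon-stimulated genes were the other large group at lower levels. The interferon alpha/beta list was 2-fold or more lower for 18 of 19, 7 of 7 and 16 of 20 genes compared, with medians of -2.55, -2.37 and -1.83, and its summed level was 671, 647, 2039.5 and 1519.5 CPM in cycling and 2516, 2967, 4253 and 3769 CPM in non-cycling cells. *Isg15*, a ubiquitin-like protein made after interferon, stood at 36.2, 37.7, 169 and 74.9 CPM in cycling and 212, 296, 446 and 311 CPM in non-cycling CD8 cells with ratios of -2.55 (-2.74 to -2.37), -2.97 (-3.70 to -2.25) and -2.05 (-2.40 to -1.73), and *Ifit3*, which binds foreign RNA with its partners, at 4.12, 4.58, 47.2 and 16.04 CPM in cycling and 80.2, 181, 219 and 168 CPM in non-cycling CD8 cells. Cycling cells were lower in each library for both genes. *Cxcl10*, a chemokine induced by interferon, stood at 15.9, 27.5, 10.7 and 18.7 CPM in cycling and 56.8, 378, 152 and 82.5 CPM in non-cycling CD8 cells. The interferon gamma list of GTPases and antigen presentation genes had medians of -1.08, -0.93 and -0.71, with 13 of 23, 8 of 16 and 8 of 22 genes 2-fold or more lower. Against the deep non-cycling cells the alpha/beta medians were -1.92 and -0.60 and the gamma medians -0.77 and 0.09, so the gamma list kept its direction in the CD45 ZsG-negative library alone.

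Growth and metabolic genes were moderately higher in cycling CD8 cells. The amino acid transport and mTORC1 list had medians of 1.19, 1.38 and 0.76, ribosome biogenesis and Myc targets 0.99, 0.94 and 0.49, glycolysis 0.83, 0.96 and 0.63, the proteasome 0.70, 0.44 and 0.41 and nuclear genes of oxidative phosphorylation 0.52, 0.45 and 0.29. The 13 mitochondrially encoded genes had medians of -0.30, -0.31 and -0.12. *Ldha*, the lactate dehydrogenase of glycolysis, stood at 1517, 1661, 1379 and 1476 CPM in cycling and 666, 666, 655 and 666 CPM in non-cycling CD8 cells, and *Npm1*, a nucleolar chaperone of ribosome assembly, at 3105, 3289, 2089 and 2839 CPM in cycling and 1607, 1578, 1628 and 2113 CPM in non-cycling CD8 cells. Both were higher in the cycling cells of each library. Against the deep non-cycling cells the ribosome biogenesis medians were 0.62 and -0.18, glycolysis 0.34 and 0.27 and the proteasome 0.38 and -0.02, and *Npm1* was 0.60 and -0.28, so ribosome biogenesis, the proteasome and *Npm1* did not keep their direction in the TCRb ZsG-positive library.

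**Figure D3:**
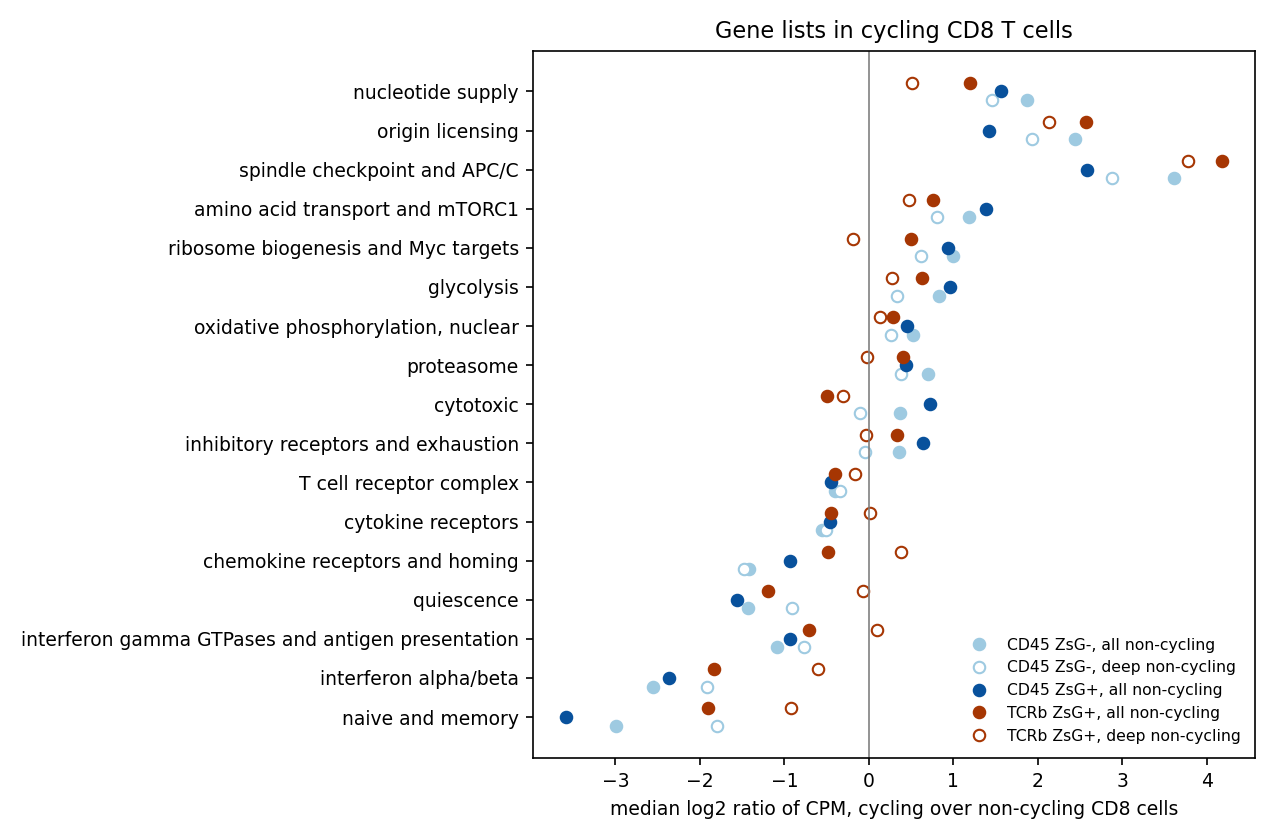
Median log2 ratio of CPM, cycling over non-cycling CD8 cells, for 17 gene lists (filled, all non-cycling cells; open, non-cycling cells with at least 10000 UMIs, 2 libraries). Cell cycle lists lie furthest to the right and the naive and memory and interferon alpha/beta lists furthest to the left, and open points lie closer to 0 than filled ones in most lists.

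Outside the cell cycle genes, 2499 genes had at least 50 UMIs in each of the 3 libraries, 1744 of them the same direction in each, and 61 were 2-fold or more higher and 45 lower in all 3. The 10 highest by their smallest ratio were *Mt2*, *Lsm2*, *Rcc1*, *Idi1*, *Nsd2*, *Lsm3*, *Psat1*, *Tmem97*, *Chchd10* and *Selenoh*. *Psat1* (chr19:15904678-15947337, minus strand), an enzyme of serine synthesis, stood at 97.5, 102, 57.9 and 82.0 CPM in cycling and 21.2, 32.9, 20.04 and 18.6 CPM in non-cycling CD8 cells, with ratios of 2.19 (1.84 to 2.59), 1.47 (0.22 to 3.54) and 2.13 (1.60 to 2.71). *Idi1* and *Tmem97* belong to sterol synthesis and handling: *Idi1* stood at 136, 139.5, 94.4 and 103 CPM in cycling and 39.1, 24.7, 21.0 and 34.9 CPM in non-cycling CD8 cells and *Tmem97* at 93.2, 78.9, 51.5 and 75.8 CPM in cycling and 19.6, 24.7, 12.3 and 14.5 CPM in non-cycling CD8 cells. In each library the cycling cells were higher for these 3 genes, and the CD45 ZsG-positive ratios rest on 3 or 4 non-cycling UMIs per gene. *Mt2*, a metal-binding metallothionein, stood at 66.4, 66.3, 34.3 and 50.8 CPM in cycling and 10.4, 8.22, 6.38 and 11.3 CPM in non-cycling CD8 cells, with 1 non-cycling UMI in the CD45 ZsG-positive library and a ratio of 2.44 (0.48 to 8.34) there. *Lsm2* and *Lsm3*, of the ring that binds spliceosomal and decaying RNA, had ratios of 1.87, 1.75 and 1.71 and 1.503, 2.02 and 1.56. *Rcc1*, the exchange factor that loads Ran with GTP, had 1.95, 2.23 and 1.57, *Nsd2*, a histone methyltransferase, 1.74, 2.51 and 1.53, and the mitochondrial protein *Chchd10* 1.77, 1.54 and 1.46. *Selenoh*, a nucleolar selenoprotein, stood at 370.3, 350.0, 287 and 361 CPM in cycling and 120.4, 123, 76.5 and 85.2 CPM in non-cycling CD8 cells. Against the deep non-cycling cells the ratios of these 10 genes stayed above 0 in both libraries, for example 1.49 and 1.55 for *Psat1*, 1.61 and 1.56 for *Tmem97* and 1.14 and 0.81 for *Idi1*.

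The 10 lowest by the same rule were *Il7r*, *Fcer1g*, *Isg15*, *Samhd1*, *Neurl3*, *Emb*, *Pdcd4*, *Cxcl10*, *Btg1* and *Ccl5*. *Ccl5* (chr11:83525778-83530518, minus strand), a chemokine of effector and memory T cells, stood at 1126, 596, 3219 and 1916 CPM in cycling and 5531, 5473, 7964 and 6231 CPM in non-cycling CD8 cells, with ratios of -2.30 (-2.33 to -2.26), -3.20 (-3.37 to -3.03) and -1.70 (-1.77 to -1.64). *Btg1*, which holds back proliferation, stood at 196, 161, 356 and 291 CPM in cycling and 804, 805, 1169 and 977 CPM in non-cycling CD8 cells, and *Emb* (embigin), a partner of lactate transporters, at 80.6, 48.0, 161 and 119 CPM in cycling and 568, 534, 583 and 428 CPM in non-cycling CD8 cells. All 3 were lower in cycling cells of each library. *Samhd1*, which degrades dNTPs, had ratios of -1.97, -2.53 and -1.96, the ubiquitin ligase *Neurl3* -2.58, -2.68 and -1.92, and *Pdcd4*, an inhibitor of translation, -2.36, -2.42 and -1.85. *Fcer1g*, a signaling adaptor shared with NK and myeloid cells, stood at 30.8, 49.2, 23.6 and 29.4 CPM in cycling and 130.5, 263, 81.5 and 144 CPM in non-cycling CD8 cells. Without the top non-cycling cell the CD45 ZsG-positive ratio went from -2.42 to -1.32 for *Fcer1g* and from -3.77 to -1.78 for *Cxcl10*, and the TCRb ZsG-positive ratio of *Fcer1g* from -2.27 to -1.61. Against the deep non-cycling cells *Fcer1g* was -2.35 and -2.65, *Btg1* -1.42 and -0.74 and *Ccl5* -1.64 and -0.11, so the *Ccl5* difference was nearly absent in the TCRb ZsG-positive library by that measure. The NK marker list, which holds *Fcer1g*, summed to 582, 470.1, 1428 and 663 CPM in cycling and 1292, 978, 1174 and 1019 CPM in non-cycling CD8 cells, with *Klrk1*, which CD8 cells also express, at the most UMIs in cycling cells of the CD45 libraries. *Ncr1*, an NK receptor, was at 0 UMIs in CD8 cells of both TCRb libraries, where *Fcer1g* was lower in cycling cells as well, and *Gzma*, also in the list, led it in the TCRb ZsG-negative library. The macrophage and monocyte list summed to 20.6, 185, 45.0 and 39.2 CPM in cycling and 49.9, 781, 79.7 and 149.6 CPM in non-cycling CD8 cells, the dendritic cell list to 151, 265, 208 and 413 against 473, 1429.9, 505 and 575 CPM, and the B cell list to 37.5, 34.3, 45.0 and 50.8 against 112, 49.3, 89.7 and 97.0 CPM. In the deep non-cycling CD8 cells the NK list summed to 1598 (CD45 ZsG-negative) and 711 CPM (TCRb ZsG-positive), and the dendritic cell list to 596 and 582 CPM. Both lists were thus higher in the deep than in all non-cycling cells of the CD45 ZsG-negative library. In the TCRb ZsG-positive library the NK list was lower and the dendritic cell list near equal. The part of RNA from these cell types in the genes lower in cycling CD8 cells, *Cxcl10* and *Fcer1g* among them, and in the ratios against deep cells was not tested.

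**Figure D4:**
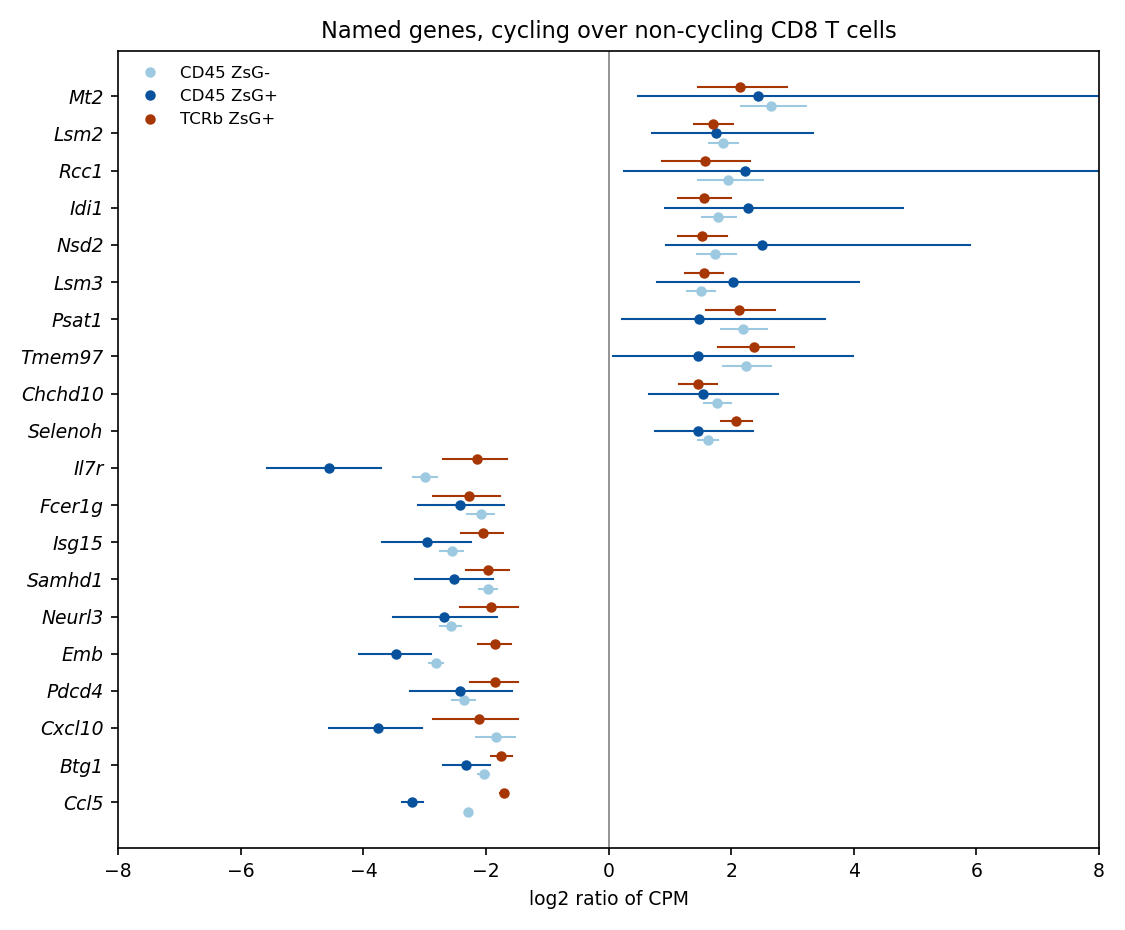
Log2 ratio of CPM, cycling over non-cycling CD8 cells, for the 20 genes named by rule (points, libraries; lines, exact conditional 95% intervals for counting error, which run past the edge where they reach 8). All ratios of the upper 10 genes lie above 0 and all of the lower 10 below 0, and the CD45 ZsG-positive intervals are widest.

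Effector and inhibitory genes differed in direction and size from gene to gene. The cytotoxic list had medians of 0.37, 0.72 and -0.50, with 5 of 15, 6 of 12 and 1 of 12 genes 2-fold or more higher and 2 of 15, 1 of 12 and 1 of 12 lower, and inhibitory receptors and exhaustion genes had 0.35, 0.64 and 0.33. Against the deep non-cycling cells the cytotoxic medians were -0.10 and -0.30 and the inhibitory ones -0.05 and -0.03. The inhibitory list thus did not keep its direction in either library, nor the cytotoxic list in the CD45 ZsG-negative one. *Gzmb* (chr14:56258838-56262260, minus strand), granzyme B, stood at 2139, 2114, 2419 and 1879 CPM in cycling and 902, 666, 1569 and 1538 CPM in non-cycling CD8 cells. *Gzmc*, granzyme C, stood at 483, 587, 360.3 and 147 CPM in cycling and 218, 16.4, 25.1 and 19.9 CPM in non-cycling CD8 cells, higher in cycling cells of each library, although 2 UMIs carry the CD45 ZsG-positive non-cycling value. *Gzma*, granzyme A, stood at 126, 40.0, 1096 and 325 CPM in cycling and 473, 164, 753 and 443 CPM in non-cycling CD8 cells, lower in cycling cells of all libraries but the TCRb ZsG-negative one. There 283 of the 511 cycling UMIs were in 1 cell, and without it the cycling level was 505 CPM, below the non-cycling one, so that direction turned. In the TCRb ZsG-positive library 192 of 365 cycling UMIs were in 1 cell, and the level without it was 155 CPM. *Prf1* (perforin) stood at 557, 544, 349.6 and 358 CPM in cycling and 331, 222, 192 and 271 CPM in non-cycling CD8 cells. Among inhibitory receptors *Pdcd1* (PD-1) stood at 317, 277, 405 and 236 CPM in cycling and 203, 205, 126 and 201 CPM in non-cycling CD8 cells and *Havcr2* (Tim-3) at 111, 109, 124 and 96.3 CPM in cycling and 64.3, 24.7, 45.5 and 68.4 CPM in non-cycling CD8 cells, each higher in cycling cells of every library. Against the deep non-cycling cells these differences were small: *Gzmb* was 0.65 and -0.02, *Prf1* -0.06 and -0.36, *Pdcd1* 0.15 and -0.10 and *Havcr2* 0.00 and -0.12, while *Gzmc* was 0.24 and 1.94 and *Gzma* -2.30 and 2.23. Thinned to 2000 UMIs, *Gzmb* was seen in 84.5%, 83.3%, 57.9% and 77.4% of cycling and 36.8%, 36.4%, 45.8% and 51.0% of non-cycling CD8 cells, with 5.58% in macrophage-type cells of the CD45 ZsG-negative library.

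Cytokine and chemokine genes differed in direction from gene to gene and from library to library, and several directions rested on single cells. *Ifng*, interferon gamma, stood at 841, 506, 862 and 746 CPM in cycling and 300.4, 263, 1082 and 4563 CPM in non-cycling CD8 cells, higher in cycling cells of the CD45 sort and lower in cycling cells of the T cell sort. *Ccl4* stood at 1113, 737, 553 and 1859 CPM in cycling and 1137, 1323, 2147 and 4447 CPM in non-cycling CD8 cells and *Xcl1*, which attracts cross-presenting dendritic cells, at 637, 905, 399 and 1909.9 CPM in cycling and 690.2, 263, 506 and 4242 CPM in non-cycling CD8 cells. *Ccl4* was lower in cycling cells of all 4 libraries and *Xcl1* of all but the CD45 ZsG-positive one, although in the CD45 ZsG-negative library the non-cycling levels were 973 and 527 CPM without the top cell of each gene, which turned both directions. In the deep non-cycling cells of that library *Ccl4* stood at 1769 and *Xcl1* at 1287 CPM, or 1421 and 943 CPM without the top cell. All of these lay above the cycling levels. *Xcl1* in the TCRb ZsG-negative library came level when the top non-cycling cell was left out, at 399 CPM in cycling against 394 CPM in non-cycling cells. Of its 186 cycling UMIs there, 137 were in 1 cell. With that cell left out as well, the cycling level was 114 CPM, below the non-cycling one. The list of cytokines and chemokines had medians of 0.68, -0.23 and -1.003, and its sum was 6597, 5909.9, 7649.9 and 9941 CPM in cycling and 9613, 9944, 14183 and 24614 CPM in non-cycling CD8 cells, lower in cycling cells of each library. In cycling CD8 cells of the CD45 ZsG-negative library *Ifng* was found in 283 of 335 cells and *Ccl4* in 284. In the TCRb ZsG-positive library most of the non-cycling RNA sat in deep cells. Of the 10068 *Ifng* UMIs in its 291 non-cycling CD8 cells, 9492 were in the 61 deep ones and 5778 in 5 cells, against 837 UMIs in the 53 cycling cells. In the TCRb ZsG-negative library 1162 of 2375 non-cycling and 240 of 402 cycling *Ifng* UMIs were in 1 cell each, and in the CD45 ZsG-negative library 1717 of 8588 cycling UMIs were. Without its top cell the non-cycling *Ifng* level of the TCRb ZsG-negative library was 556 CPM, below the cycling one, so that direction turned. With the top cycling cell left out as well, the cycling level was 378 CPM, again below the non-cycling one. In the TCRb ZsG-positive library the deep non-cycling cells held, for *Xcl1*, 8626 of 9358 UMIs, and for *Ccl4* 7318 of 9811. *Il2*, the T cell growth factor, was at 82 UMIs in non-cycling CD8 cells of the TCRb ZsG-positive library, 67 of them in 1 cell, and at 1 UMI in cycling cells.

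The T cell receptor complex list had medians of -0.40, -0.45 and -0.40, cytokine receptors -0.55, -0.46 and -0.45, and chemokine receptors and homing genes -1.42, -0.94 and -0.48, with 10 of 17, 5 of 11 and 5 of 16 genes 2-fold or more lower. *Cxcr3*, the receptor for *Cxcl9* and *Cxcl10*, stood at 17.0, 11.4, 23.6 and 21.4 CPM in cycling and 89.0, 115, 112 and 97.0 CPM in non-cycling CD8 cells, lower in each library. *Cxcr6*, a receptor of resident T cells, stood at 208, 160.1, 221 and 196 CPM in cycling and 214, 197, 182 and 221 CPM in non-cycling CD8 cells. *Il2ra*, the high-affinity chain of the IL-2 receptor, stood at 67.8, 84.6, 79.4 and 122 CPM in cycling and 36.5, 24.7, 52.8 and 55.3 CPM in non-cycling CD8 cells. *Il2ra* was higher and *Cxcr6* near equal in the 3 libraries compared, at 0.89, 1.57 and 1.14 and -0.05, -0.33 and -0.17, and against the deep non-cycling cells *Il2ra* was 0.08 and 0.02. Immediate early genes had medians of -0.30, -0.84 and -0.34 and heat shock genes 0.88, 0.48 and 0.19. The chemokine receptor and homing medians against the deep non-cycling cells were -1.47 and 0.38, so that direction turned in the TCRb ZsG-positive library. Cytokine receptors had medians of -0.51 and 0.02 by that measure, so their lower level was lost in the same library.

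Within Foxp3+ cells, 26 cycling were set beside 21 non-cycling cells in the CD45 ZsG-negative library and 29 beside 64 in the TCRb ZsG-positive library (in this order below), and the other libraries had 6 and 8 cycling Foxp3+ cells and were not compared. Median depths were 21102 and 18795 UMIs in cycling and 5656 and 5612.5 in non-cycling Foxp3+ cells. Only 7 and 14 of the non-cycling cells were deep, so no ratio against deep cells was made for this class. Its differences were thus not set beside cells of like depth. Of 4747 and 5136 genes compared, 15.6% and 11.9% were 2-fold or more higher and 15.8% and 10.3% lower. The S phase medians were 1.58 and 2.70 and the G2M phase medians 3.96 and 2.71. *Rrm2* stood at 291 against 0 CPM (189 against 0 UMIs, at least 17.5-fold higher with the floor set at 3 UMIs over the group) and at 255 against 17.5 CPM. Ribosome biogenesis and Myc targets were 2-fold or more higher for 19 of 28 and 20 of 28 genes (medians 1.31 and 1.18), with *Npm1* at 3012 and 1751 CPM in cycling and 895 and 738 CPM in non-cycling Foxp3+ cells. *Npm1* was higher in both libraries, with intervals of 1.52 to 1.99 and 1.07 to 1.43 on the log2 scale. *Psat1* had ratios of 3.36 (1.40 to 9.27) and 1.95 (1.04 to 3.08), the first against 1 UMI, and *Tmem97* 1.61 (0.44 to 3.41) and 1.86 (0.86 to 3.15).

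*Foxp3* itself stood at 135 and 185 CPM in cycling and 282 and 401 CPM in non-cycling Foxp3+ cells, which the class fixes in part, since a deep cell meets the 1 UMI it asks for at a lower level. Other Treg genes, which the class did not use, varied from near equal to several times lower. *Ikzf2* (Helios) had ratios of -0.54 (-0.77 to -0.30) and -0.48 (-0.65 to -0.31) and *Ctla4*, the inhibitory receptor of Tregs, 0.12 (-0.14 to 0.40) and -0.50 (-0.65 to -0.35). *Tnfrsf9* (4-1BB), a receptor induced by activation, had -1.26 and -0.94. *Areg*, the tissue repair factor amphiregulin, stood at 171 and 46.3 CPM in cycling and 922 and 670.1 CPM in non-cycling cells, and *Il7r* at 36.9 and 57.0 against 226 and 366 CPM. Both were lower in cycling Foxp3+ cells by more than 4-fold in each library. The Treg list was 2-fold or more lower for 6 of 15 and 6 of 17 genes (medians -0.81 and -0.86), the interferon alpha/beta list had medians of -0.95 and -1.21, and the quiescence list -1.34 and -0.998. The dendritic cell marker list, most of it *Bst2* (216 and 243 UMIs) in cycling cells, summed to 486 against 3640.0 CPM and 463 against 1231 CPM, and the NK marker list, led by *Tyrobp* (201 and 61 UMIs) in non-cycling cells, to 434 against 2690.0 CPM and 12.5 against 219 CPM. The part of RNA from such cells in the Foxp3+ differences was not tested. *Xcr1* was at 0 in the Foxp3+ cells of all libraries, and *Fscn1*, a gene of mature dendritic cells, at 0 UMIs in the cycling but 30 and 42 UMIs in the non-cycling ones of the libraries compared.

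Cycling Foxp3+ and cycling CD8 cells had S phase, G2M phase and origin licensing medians between -0.10 and 0.26 on the log2 scale and differed in the genes of their lineages. This comparison (CD45 ZsG-negative, 26 against 335 cells, and TCRb ZsG-positive, 29 against 53) was added after the data were seen, and *Cd4*, *Cd8a*, *Cd8b1* and *Foxp3* chose the classes. Of 9805 and 6518 genes compared, 7.91% and 5.02% were 2-fold or more higher in Foxp3+ cells and 9.58% and 7.79% lower. The S phase medians were -0.10 and 0.02, the G2M phase medians 0.26 and 0.02 and those of origin licensing -0.08 and 0.04, beside -0.00 and -0.03 over all genes. The spindle checkpoint list had 0.18 and -0.34, summing to 984 against 1355 CPM in the TCRb ZsG-positive library, and the CDK inhibitors 0.37 and 0.48. *Psat1* (-0.19 and 0.23) and *Tmem97* (0.00 and -0.01) were near equal. The Treg list was 2-fold or more higher for 14 of 17 and 12 of 15 genes, with *Ikzf2* at 789 against 101 CPM and 975 against 121 CPM, and *Ctla4* at 861 against 165 CPM and 1166 against 177 CPM. *Tnfrsf4* (OX40) had ratios of 1.97 and 3.03, *Il2ra*, the IL-2 receptor alpha chain, 1.63 and 1.89, and *Il10*, an inhibitory cytokine, 5.27 and 2.22.

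The cytotoxic list was 2-fold or more lower in cycling Foxp3+ cells for 12 of 15 and 9 of 11 genes. *Prf1* stood at 49.2 against 557 CPM and 28.5 against 358 CPM, *Ccl5* at 263 against 1126 CPM and 309.7 against 1916 CPM, and *Gzmb* at 952 against 2139 CPM and 1258 against 1879 CPM. *Gzmb* was thus closer between the classes than *Prf1*, and still present in cycling Foxp3+ cells. Interferon alpha/beta genes were higher in cycling Foxp3+ than cycling CD8 cells, 2-fold or more for 12 of 16 and 7 of 14 genes (medians 1.52 and 1.00), with *Isg15* at 181 against 36.2 CPM and 246 against 74.9 CPM. *Bst2* belongs to both the interferon and the dendritic cell list, and the dendritic cell list summed to 486 against 151 and 463 against 413 CPM. By gene this list differed between the libraries. In the CD45 ZsG-negative library 6 of 6 genes compared were 2-fold or more higher in Foxp3+ cells (median 2.85). In the TCRb ZsG-positive library 0 of 4 were higher and 3 lower (median -1.98). The B cell list summed to 234 against 37.5 and 164 against 50.8 CPM, nearly all of it *Ighm* (143 against 362 and 89 against 48 UMIs), with *Ms4a1* and *Pax5* at 0 UMIs in both classes. The part of RNA from such cells in the interferon genes was not tested.

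Between ZsG gates, the S phase, G2M phase and origin licensing medians of cycling T cells lay within 0.27 of 0 on the log2 scale. Of 10152 genes compared in the CD45 sort and 7521 in the T cell sort, 4.07% and 4.24% were 2-fold or more higher in ZsG-positive cycling T cells and 3.12% and 1.62% lower. These lists had S phase medians of 0.03 and 0.09, G2M phase medians of 0.27 and 0.00 and origin licensing at -0.02 and -0.01. *Rrm2* had ratios of -0.08 (-0.28 to 0.12) and 0.23 (-0.03 to 0.51), and *Mki67*, which chose the cells, 0.67 (0.54 to 0.79) and -0.03 (-0.24 to 0.18), higher in ZsG-positive cells of the CD45 sort alone. By UMIs, *Foxp3* was higher in ZsG-positive cycling cells of both sorts, at 24.8 against 12.2 CPM (log2 1.04, interval 0.38 to 1.61) and 66.2 against 38.0 CPM (0.78, interval 0.21 to 1.44). In the CD45 ZsG-positive library 27 of its 28 UMIs were in 6 Foxp3+ cells. By cells, the Foxp3+ share of cycling cells had ratios of 0.88 (-0.69 to 2.19) and 0.42 (-0.74 to 1.76), with intervals across 0. The Treg list summed to 2325 against 1658 CPM and 3492 against 2659.9 CPM, with medians of 0.65 and 0.55. The cytotoxic list had medians of -0.20 and -0.20, the inhibitory receptors -0.16 and 0.07, and *Gzmb* -0.16 (-0.23 to -0.09) and -0.18 (-0.27 to -0.08).

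The 10 genes that were furthest higher in ZsG-positive cycling cells of the T cell sort, by the nearer bound of their interval, were *H2-Aa*, *Dapl1*, *Cd74*, *H2-Ab1*, *Tyrobp*, *Ly6d*, *H2-Eb1*, *Xcl1*, *Ccl4* and *Ifitm3*. *H2-Aa*, *H2-Ab1*, *H2-Eb1* and *Cd74*, the MHC class II chains and their chaperone, were higher in both sorts: *Cd74* stood at 267 against 62.5 CPM (log2 2.09, interval 1.90 to 2.29) and 169 against 13.1 CPM (3.62, interval 2.79 to 4.76), and *H2-Aa* at 136 against 23.8 CPM and 50.2 against 0 CPM (94 against 0 UMIs, at least 12.8-fold). These are genes of antigen-presenting cells, and 57 of the 94 *H2-Aa* UMIs were in 1 cell, while *Cd74* was found in 41 of 92 ZsG-positive and 8 of 34 ZsG-negative cells of that sort. In the CD45 sort the top ZsG-positive cell of each gene held 85 of the 153 *H2-Aa*, 126 of the 190 *H2-Ab1*, 89 of the 151 *H2-Eb1* and 135 of the 301 *Cd74* UMIs. Without it the ratios fell from 2.51 to 1.39, from 2.84 to 1.33, from 3.14 to 1.91 and from 2.09 to 1.28 and stayed above 0. The macrophage and monocyte list, led by *Lyz2*, summed to 287 against 24.0 CPM in the CD45 sort and 44.9 against 35.4 CPM in the T cell sort, and the dendritic cell list, led by *Bst2*, to 624 against 231 CPM and 557 against 257 CPM. The part of RNA from such cells in the class II genes was not tested. In the T cell sort *Xcr1* and *Csf1r* were at 0 in cycling cells of both libraries. The list's plasmacytoid dendritic cell gene *Siglech* was at 37 against 0 UMIs there (27 of the 37 in 1 cell), *Ccr9* at 32 against 0 and *Klk1* at 42 against 0, while in the CD45 sort they were at 0 against 69, 0 against 30 and 0 against 28 UMIs.

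*Xcl1* (chr1:164931644-164935527, minus strand) stood at 1145 against 244 CPM in the T cell sort (log2 2.23, interval 2.02 to 2.46), with 815 of its 2144 ZsG-positive UMIs in 1 cell and 30 of 92 ZsG-positive against 8 of 34 ZsG-negative cells positive, and at 709.8 against 613 CPM in the CD45 sort (0.21, interval 0.11 to 0.32). In non-cycling T cells of the same sorts its ratio was 2.81 and -0.15. *Ccl4* stood at 1250.5 against 352 CPM (1.82, interval 1.64 to 2.01), with 55 of 92 ZsG-positive cells positive, but at 713 against 999 CPM in the CD45 sort (-0.48, interval -0.59 to -0.38). In the CD45 sort 235 of the 801 ZsG-positive *Xcl1* UMIs were in 1 cell, and without it *Xcl1* stood at 519 against 613 CPM (-0.24, interval -0.36 to -0.12), so its direction there turned, while in the T cell sort it was 1.56 without the top cell. *Ccl4* was 1.48 in the T cell sort without its top cell. *Ifitm3*, an interferon-induced membrane protein, was higher in both sorts at 2.15 (1.36 to 3.20) in the T cell and 3.07 (2.76 to 3.37) in the CD45 sort, where it was 2.27 without its top cell. For *Dapl1*, 86 of 130 UMIs, and for *Ly6d*, 47 of 52 UMIs, were in 1 cell each, and without it *Ly6d* was at 5 against 0 UMIs. *Tyrobp*, a signaling adaptor of NK and myeloid cells, was at 103 against 2 UMIs in the T cell sort (log2 4.08), with 39 of the 103 in 1 cell, and at 82 against 914 UMIs in the CD45 sort (-0.07, interval -0.42 to 0.25).

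The 10 furthest lower were *Hspa1a*, *Ifitm1*, *Hspa1b*, *Gzma*, *Ifitm2*, *Gzmc*, *Emb*, *Pdcd4*, *Hist1h2ap* and *Ccl5*. *Ccl5* stood at 1337 against 2279 CPM (log2 -0.77, interval -0.86 to -0.68) and 529.9 against 1139.6 CPM in the CD45 sort (-1.10, interval -1.23 to -0.99), lower in ZsG-positive cycling cells of both. *Emb* was lower in both as well at -1.08 (-1.41 to -0.74) and -0.79 (-1.20 to -0.42), and so was *Pdcd4* in value, at -1.15 (-1.59 to -0.70) and -0.23 (-0.76 to 0.23). *Gzma* had -1.77 (-1.96 to -1.57) and -0.53 (-0.82 to -0.26), with 283 of 522 ZsG-negative UMIs of the T cell sort in 1 cell, without which it was -0.67 (-0.91 to -0.43). Its direction in the CD45 sort turned when each cell's CPM was averaged, so that cells counted equally. *Gzmc* had -1.26 (-1.58 to -0.95) and -0.05 (-0.18 to 0.08), or -0.55 (-0.91 to -0.17) and 0.09 without its top cell in each sort, and the S phase histone *Hist1h2ap* -0.88 (-1.06 to -0.69) and -0.18 (-0.33 to -0.05). The heat shock gene *Hspa1a* had 69 of its 72 ZsG-negative UMIs in 1 cell, *Hspa1b* 46 of 55, and *Ifitm1* all 201 UMIs in 1 cell. Without that cell *Hspa1a* was -0.95 (-3.46 to 1.87), *Hspa1b* 0.17, with an interval that reached 0, and *Ifitm1* at 96 against 0 UMIs, so the direction of *Hspa1b* and *Ifitm1* turned, and *Ifitm2* was -0.68 (-1.52 to 0.21) without its own top cell. In non-cycling T cells *Ccl5* had -0.42 in the T cell and -0.08 in the CD45 sort.

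**Figure D5:**
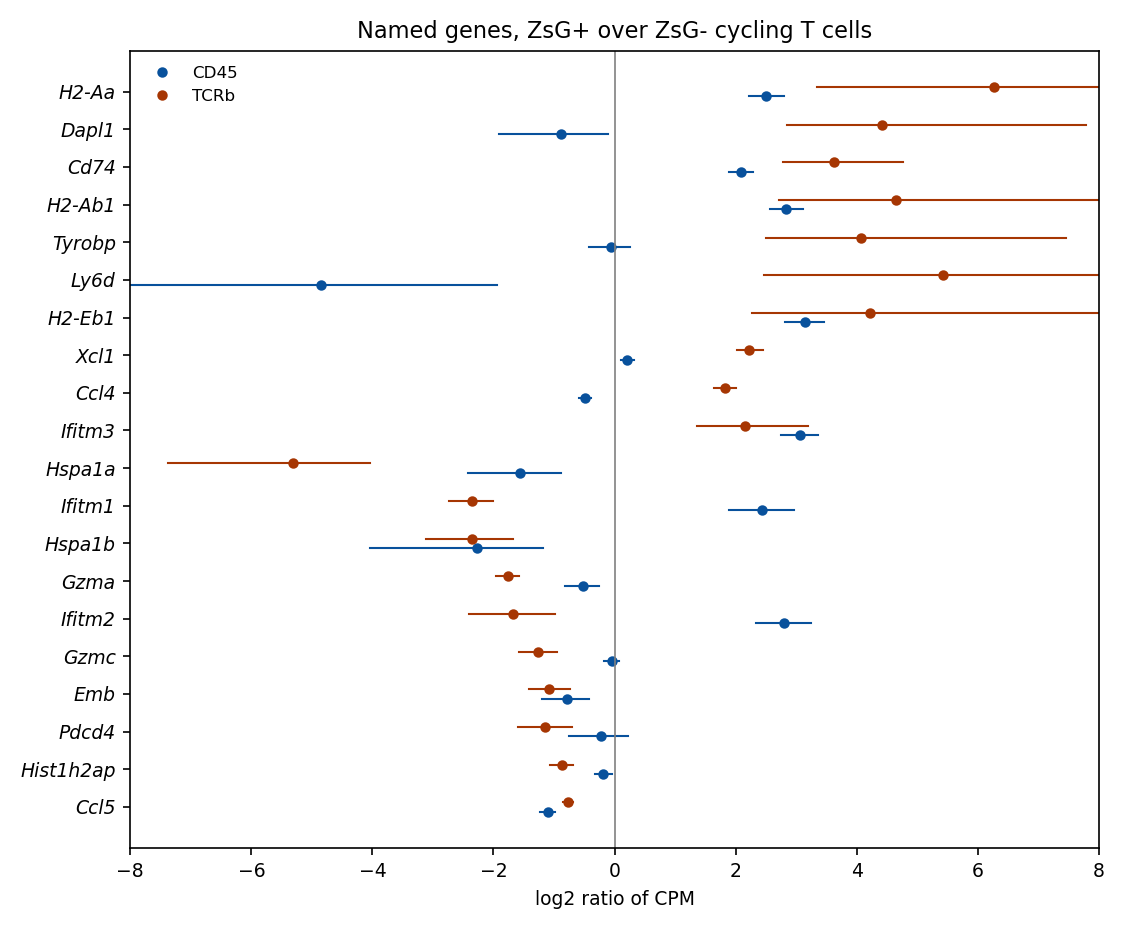
Log2 ratio of CPM, ZsG-positive over ZsG-negative cycling T cells, for the 20 genes named by rule in the T cell sort, with the CD45 sort beside each (points; lines, exact conditional 95% intervals for counting error, which run past the edge where they reach 8). Points against 0 UMIs (*H2-Aa* and *Ly6d*) depend on the 0.5 added to each sum; *Ifitm1*, *Ifitm2*, *Dapl1*, *Ly6d* and *Ccl4* lie on opposite sides of 0 in the 2 sorts with intervals that do not reach it, and *Tyrobp* does so with a CD45 interval that does.

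Transcripts of melanocyte pigment genes, which tumor cells make, were rare in cycling T cells. The 5 genes *Pmel*, *Mlana*, *Tyr*, *Tyrp1* and *Dct* summed to 7.48 against 0 CPM in the T cell sort (ZsG-positive against ZsG-negative) and 1.77 against 0.502 CPM in the CD45 sort. *Pmel* was at 8 against 0 UMIs and *Dct* at 4 against 0 UMIs in the T cell sort, and at 0 against 3 and 2 against 1 UMIs in the CD45 sort. These sums are a few UMIs per library, and *Tyr* was at 0 in cycling T cells of all 4.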

How the data were processed

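The deposited values were UMI counts per gene and cell barcode, which the authors made with Cell Ranger (version 6.1.2 in the labels and in the header of the T cell matrix, 7.0.0 in that of the CD45 matrix) on mm10, joining the ZsG-negative and ZsG-positive libraries of each sort into 1 matrix of 32285 (CD45) or 31053 (T cell sort) genes. The sources used here do not state whether that step evened out depth. Cells with at least 1000 and under 6000 genes and under 10% mitochondrial UMIs (CD45), or at least 50 and under 6000 genes and under 15% (T cell sort), were kept. Doublets were kept, since a doublet caller (Scrublet in scanpy 1.11.5) marked 1 ZsG-negative and 0 ZsG-positive cells of the CD45 sort, where it thus did not work, and 3 and 11 of the T cell sort. Median depths of cycling and non-cycling cells stand in the report.

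Each class in each library was reduced to 1 sum of UMIs per gene, given as CPM of the class total, so cells are not replicates. No test across samples was made, since each group had 1 library and the cycling state was set by the measured values. Intervals are exact (Poisson for sums, Clopper-Pearson for shares, conditional binomial for ratios), at 95%, and cover counting error only. CD4 Foxp3- cells held at least 1 *Cd4* UMI, no *Foxp3* and at most 1 UMI of *Cd8a* and *Cd8b1*, mixed cells at least 2 of *Cd8a* and *Cd8b1* with *Cd4* or *Foxp3*, and the rest were neither. Levels of a class were compared where at least 20 of its cycling cells were in the library. The genes named between states were, outside cell cycle genes, the 10 highest and 10 lowest by their smallest log2 ratio among CD8 cells, with at least 50 UMIs in each library compared and 1 direction. Those named between ZsG gates were the 10 highest and 10 lowest of cycling T cells in the T cell sort, with at least 50 UMIs, by the interval bound nearest to 0. Other genes came from marker and pathway lists. The cells, lists and rules were chosen with earlier results of these data known. Gene positions are from GENCODE (vM21) and promoters from RefSeq, both on GRCm38 (mm10).

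On sums simulated with Poisson error alone for CD8 cells of the CD45 ZsG-negative library (10175 genes, 190 of them changed 4-fold), 99.5% of changed and 1.46% of unchanged genes passed 2-fold, and intervals covered the truth for 96.4%. The simulation held no spread between cells. It therefore checks the calculation and does not give the error rates of these data, where single cells held most UMIs of some genes. Alternatives were other limits on UMIs, genes and markers, thinning, TMM scaling, cells left out and exchanged libraries. Leaving out the upper limit on genes, deep non-cycling cells alone leaving out cells with NK genes and leaving out the cell with the most UMIs of a gene were added after the data were seen. Intervals came from scipy 1.17.1, tables from pandas 2.3.3 and numpy 2.4.6 under Python 3.11.15, plots from matplotlib 3.10.9, and TMM factors from edgeR 4.0.16 in R 4.3.3.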

Additional observations from a re-analysis of the deposited data

Results flagged for a closer look

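Among the 20 genes named between the ZsG gates, 5 had a ratio of ZsG-positive over ZsG-negative cycling T cells on opposite sides of 0 in the T cell and the CD45 sort, each with an interval that did not reach 0. The difference between the sorts was not tested. *Ccl4* was higher in the T cell sort (log2 1.82) and lower in the CD45 sort (-0.48). *Dapl1* was 4.41 and -0.88, and *Ly6d* 5.42 and -4.85, the latter against 0 UMIs in 1 library of each sort (52 against 0 and 0 against 152 UMIs), so these values depend on the 0.5 added to each sum and the bounds are at least 7.07-fold higher and at least 4.78-fold lower. *Siglech*, a gene of plasmacytoid dendritic cells outside those 20, did the same at 4.93 and -3.71 (37 against 0 and 0 against 69 UMIs, at least 5.03-fold higher and at least 2.17-fold lower), and the part of RNA from such cells was not tested. *Ifitm1* was -2.36 and 2.44, and *Ifitm2* -1.68 and 2.80. In the T cell sort 1 cell held 86 of the 130 *Dapl1* UMIs, 47 of the 52 *Ly6d* UMIs and all 201 ZsG-negative *Ifitm1* UMIs, and in the CD45 ZsG-positive library 1 cell held all 45 *Ifitm1* UMIs. Without the top cell of the higher library *Ifitm1* turned in each sort, *Ly6d* was at 5 against 0 UMIs and *Ifitm2* was -0.68 (interval -1.52 to 0.21) in the T cell sort, so for these 3 the directions in the T cell sort rested on single cells. In the CD45 sort *Ly6d* and *Ifitm2* kept their directions without the top cell, at 0 against 79 UMIs and at 2.14 (interval 1.58 to 2.66). Without its top cell (64 of 243 UMIs) *Dapl1* in the CD45 sort was -0.44 (interval -1.48 to 0.34), which reaches 0. *Ccl4* was found in 55 of 92 ZsG-positive and 19 of 34 ZsG-negative cycling cells of the T cell sort, with 536 of 2341 and 108 of 269 UMIs in the top cell.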

How the results depend on the processing

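No paired analysis was possible because no result comes from a test: each group had 1 library, cycling and non-cycling cells were chosen by their measured values, and the 2 sorts set the ZsG gate differently. The direction of the ZsG-positive over ZsG-negative cycling share turned under 1 alternative in each sort: to -0.12 in the CD45 sort when T cells with any *C1qa*, *C1qb* or *Lyz2* UMI were left out (fewer cells, with a CD8 share of cycling cells of 0% and a Foxp3+ share of 50% in the CD45 ZsG-positive library), and to -1.29 in the T cell sort when its libraries were exchanged, by construction, where 122 genes were 2-fold higher and 319 lower. Under the alternatives other than these, the ratios ran from 0.45 to 1.00 and from 0.79 to 1.39. This range also leaves out the T cell sort without cells holding *C1qa*, *C1qb* or *Lyz2* UMIs. There the cycling shares were 12.5% (ZsG-positive) against 4.58% (ZsG-negative), in the direction reported. Thinning to 2000 UMIs gave a CD8 share of cycling cells of 78.1% in the CD45 ZsG-negative library. The counts of genes 2-fold higher and lower depended on the UMI limit per gene and on thinning. The limit changes the genes compared. Thinning was applied to *Mki67* and *Top2a* alone, while classes and gene sums used all UMIs. It changed the cycling rule and the cells together (CD8 cells of the CD45 ZsG-negative library went from 335 to 260 cycling and from 367 to 541 non-cycling), so the cause of its effect was not tested. Thinned, they were 345 and 489 (CD8, CD45 ZsG-negative), 492 and 266 (CD8, CD45 ZsG-positive), 286 and 361 (Foxp3+, CD45 ZsG-negative), 299 and 276 (Foxp3+, TCRb ZsG-positive), and 206 lower between ZsG gates in the T cell sort. From 100 UMIs per gene they were 523 lower, 257 and 79, 276 and 151 (CD8, the 3 libraries in order), 222 and 111, 152 and 122 (Foxp3+, 2 libraries), 63 and 56 (ZsG, CD45 sort) and 21 and 7 (ZsG, T cell sort). From 5 UMIs, in the same order, they were 1759 lower, 1608 and 1556, 1317 and 951, 1288 and 2015, 1258 and 1319, 1085 and 537, and 806 and 447. With 1 added to each sum, 207 genes were lower between ZsG gates in the CD45 sort, and against deep non-cycling cells 204 were lower in TCRb ZsG-positive CD8 cells, where the cause was not tested. Among named genes, *Gzma* in the CD45 sort turned from -0.53 to 0.38 when each cell's CPM was averaged, so cells counted equally. Without the cell that held the most UMIs in the higher group, an alternative chosen after seeing the data, *Xcl1* (-0.24) and *Ifitm1* (-4.02) turned in the CD45 sort and *Ifitm1* (6.24) and *Hspa1b* (0.17, with an interval that reached 0) in the T cell sort, the *Ifitm1* values against 0 UMIs, while 75 ratios stayed within counting error and 21 moved. In the CD45 sort *Gzmc* (from -0.05 to 0.09) and *Tyrobp* (from -0.07 to 0.02) also changed sign. Their intervals reached 0 with and without that cell, and they were counted as moved and as stayed. Ratios of named genes and list medians were computed again under changed scaling, averaged CPM, UMI limits per gene, the value added and deep non-cycling cells. Named genes were also computed without the top cell. Neither was computed under thinning, exchanged libraries or other limits on cells and markers. Within these alternatives the ratios of named genes stayed within counting error 638 times, moved further 77 times and were counted as turned 5 times (against deep non-cycling cells alone, 8 stayed and 32 moved). Of the 638, 100 and 80 came from the limits of 5 and 100 UMIs per gene, which cannot change a ratio. List medians moved by under 1.5-fold 905 times and by more 46 times. TMM scaling moved the median of all genes by -0.10, -0.22 and -0.15 in CD8 cells. Few cycling cells limit the Foxp3+ (6 to 29 per library) and CD4 Foxp3- (1 to 7) values.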
